A study of Mus musculus with 25 samples.

Results

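Livers of mice lacking p53 in hepatocytes were compared with wild-type livers after the carcinogen diethylnitrosamine (DEN). The comparison rests on 10 of the 25 arrays of the series, 5 labelled as p53 knockout with Rb wild type and DEN (p53KO) and 5 labelled as wild type for both genes and DEN (WT), and these were chosen by their labels and not by any measured value. All animals were of the strain FVB;129. Per the series text the mice carried Cre recombinase under the albumin promoter and loxP sites in the Rb gene (Rb1), the p53 gene (Trp53) or both, so that deletion is directed to hepatocytes and the other cells of the liver keep the gene. DEN was given as a single intraperitoneal injection of 20 mg/kg at 14 days of age, and the series text gives 24 h as the time of treatment. Arrays of 3 further groups are used beside the comparison. These are 4 DEN-treated Rb knockouts (RbKO), 5 DEN-treated knockouts of both genes (DKO) and 3 untreated wild types, whose treatment the labels give as none and the series text as saline. The remaining 3 arrays, untreated knockouts of both genes, entered the fit only through the shared estimate of the spread. There was no untreated p53KO group, so the effect of DEN within p53KO livers cannot be separated from genotype. The labels do not say that the replicates came from separate animals, so p-values reflect how far these samples vary, which may in part be technical.

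DEN is turned into an alkylating agent by cytochrome P450 enzymes of hepatocytes, and the alkylated bases give rise to DNA breaks and stalled replication forks. The transcription factor p53 is stabilised by such damage, binds response elements made of 10-base units (decamers) in its target genes, and raises genes of cell cycle arrest, cell death, DNA repair and its own negative feedback. Genes of replication and mitosis are in contrast lowered by active p53, mainly through p21 and complexes of the Rb family with E2F factors. The comparison asks which of the genes of a DEN-treated liver at 2 weeks of age depend on hepatocyte p53.

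Each array gave log2 signals for 35555 probe sets, of which 1 probe set stood for each of 15951 tested genes. Array names place the arrays in 3 sets, and the compared groups share only set 1. WT replicates 1 to 3 and p53KO replicates 1 and 2 were in set 1, WT replicates 4 and 5 in set 2, and p53KO replicates 3 to 5 in set 3. The fit therefore used all 25 arrays and a term for the set. Every group with arrays in more than 1 set informs the shifts. For set 3 these groups were p53KO and DKO, and for set 2 WT, untreated WT and RbKO. From outside the compared groups, set 3 holds 2 DKO arrays and set 2 holds 1 untreated WT and 1 RbKO array. A fitted difference can for this reason depart from the difference of the plain means. With array weights, an alternative listed below, these arrays from outside the compared groups had the lowest weights of the series, from 0.27 to 0.43. The 4 arrays of set 2 stood apart, with a mean correlation of 0.937 to 0.945 with the other arrays, against 0.955 to 0.973 for the rest. The labels give no sexes. Xist, which is transcribed from the inactive X chromosome, read 3.38 to 3.92 on all 5 WT arrays, but 9.70 and 10.35 on p53KO replicates 1 and 5, and the Y-linked Eif2s3y read 4.54 on p53KO replicate 5, between the 2.59 of replicate 1 and the 7.40 to 7.73 of replicates 2 to 4. The arrays of p53KO thus did not all come from 1 animal, while these genes make no such distinction among the WT arrays. The number of arrays limits the precision of all values. Trp53 itself was not analysed here, and the p53KO label was therefore not checked against the targeted gene. Rb1, which both genotypes carry intact, read 5.04 to 6.02 in WT and 5.56 to 5.93 in p53KO, and its log2 difference was -0.05 (SE 0.20, limma adjusted p = 0.939). It was the low WT replicate 5, at 5.04, that set the lower end. The mean level of 16 hepatocyte markers was 10.35 to 10.65 on the WT arrays and 10.20 to 10.39 on the p53KO arrays, and none of the 16 was called different.

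After DEN 171 genes were lower and 113 higher in p53KO than in WT livers. These 284 genes were 1.78% of those tested (limma, Benjamini-Hochberg adjusted p under 0.05), with 0.708% called higher and 1.07% called lower, and 48 of them differed by more than 1 log2 unit. All 284 had the same sign within array set 1 alone. The arrays of set 1 are part of the fit, so this agreement is largely built in and is no independent test. The genes called lower were led by Ephx1 (microsomal epoxide hydrolase), Ces2e (a carboxylesterase), Gria3 (a glutamate receptor subunit) and Gstp1 (a glutathione S-transferase), and those called higher by Rsph4a (a radial spoke protein of motile cilia) and by genes of S phase and mitosis such as Pclaf and Ndc80. Calls fell to 57 without p53KO replicate 1, to 35 without p53KO replicate 2 and to 174 without WT replicate 2, and with Xist as a covariate there were 158. The share of calls that were lower was 60.2%, against 47.3% with each array centred on its median and 52.3% after another quantile normalization. The median over all genes was -0.01 in the fit as given, 0.03 with centring and -0.02 after that normalization.

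**Figure D1:**
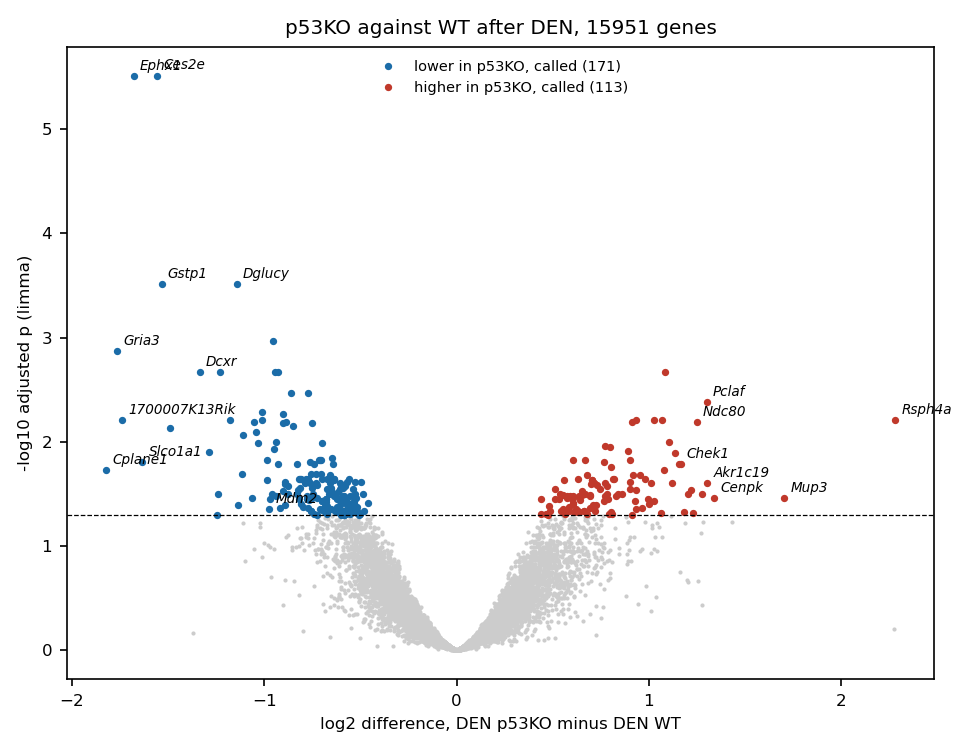
Log2 difference between DEN-treated p53KO and WT livers (horizontal) against -log10 of the limma adjusted p (vertical) for 15951 genes; the dashed line marks an adjusted p of 0.05. The 171 genes called lower (blue) and 113 called higher (red) are coloured; Ephx1 and Ces2e lie at the top left and Rsph4a at the far right.

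Of 78 listed p53 target genes 72 were tested. The list members were chosen with earlier results of these data known, so the shares below describe the lists and are no independent test. In p53KO 15 of them were lower (20.8%, against 1.07% of all tested genes) and none was higher, and 57 were not called. The median of the 72 log2 differences was -0.30, against -0.01 over all genes, and 59 were below 0. At an unadjusted p under 0.05 there were 32 lower and none higher. On 12 genes all 5 p53KO arrays lay below all 5 WT arrays, which held for 4.55% of all tested genes, and on 1 gene they lay above, which held for 2.63%. The 15 calls came to 22 within array set 1, to 19 without set 2, to 11 with Xist as a covariate, to 13 without p53KO replicate 5, to 6 without p53KO replicate 1 and likewise 6 without replicate 2, to 9 without WT replicate 2, and to 8 with only the compared groups in the fit. None of these settings called a target higher.

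Among the genes of p53's own feedback, 1 of 9 was called lower, with a median of -0.22. Mdm2, the ubiquitin ligase that degrades p53, read 8.24, 8.16, 7.35, 7.99 and 7.59 on WT replicates 1 to 5 and 7.02, 7.35, 7.54, 7.38 and 7.18 on p53KO replicates 1 to 5. Both groups overlap, through WT replicate 3. The log2 difference was -0.97 (SE 0.25, limma adjusted p = 0.0441, 1.96-fold lower). This call was close to the threshold and ended without WT replicates 1, 2 or 4 or without p53KO replicates 1, 3, 4 or 5, with adjusted p up to 0.0939, without a set term (0.169) and with Xist as a covariate (0.0810). Ccng1, which encodes cyclin G1, a regulator of Mdm2, read 10.05, 10.04, 9.69, 9.94 and 9.94 in WT and 9.18, 9.49, 9.01, 8.92 and 8.76 in p53KO. All p53KO arrays lay below all WT arrays, with a fitted difference of -0.74 (SE 0.23) that was not called (adjusted p = 0.0834).

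Promoters of Mdm2, Ccng1, the death gene Siva1 and 1700007K13Rik, whose fall is described further on, hold sequences that match the p53 decamer. They are shown as examples of genes that are lower in p53KO or, for Ccng1, separate the groups. Other genes named below hold a match as well and are not shown. Of these, Slco1a1, Serpina3n and Sparc were called lower in p53KO, and Akr1c19 and Cyp2c55 were called higher. Aen separated the groups without a call. Sequences are from RefSeq on GRCm38.p6 and run 5′ to 3′ along the gene's strand, from 250 bases before to 50 bases after the start site, with the decamers in capitals.
Mdm2 (chr10:117710709-117711008, minus strand): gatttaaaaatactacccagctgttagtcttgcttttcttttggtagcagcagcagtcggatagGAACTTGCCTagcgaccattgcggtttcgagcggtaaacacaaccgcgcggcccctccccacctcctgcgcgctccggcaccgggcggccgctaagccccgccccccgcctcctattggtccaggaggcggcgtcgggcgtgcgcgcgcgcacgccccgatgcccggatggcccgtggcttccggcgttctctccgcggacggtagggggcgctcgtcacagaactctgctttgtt
Ccng1 (chr11:40755237-40755536, minus strand): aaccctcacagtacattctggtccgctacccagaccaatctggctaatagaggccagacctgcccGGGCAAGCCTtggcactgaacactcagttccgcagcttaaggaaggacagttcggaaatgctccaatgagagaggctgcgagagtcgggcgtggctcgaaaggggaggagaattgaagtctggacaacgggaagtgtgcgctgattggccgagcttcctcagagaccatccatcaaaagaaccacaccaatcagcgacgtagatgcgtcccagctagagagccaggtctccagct
Siva1 (chr12:112644578-112644877, plus strand): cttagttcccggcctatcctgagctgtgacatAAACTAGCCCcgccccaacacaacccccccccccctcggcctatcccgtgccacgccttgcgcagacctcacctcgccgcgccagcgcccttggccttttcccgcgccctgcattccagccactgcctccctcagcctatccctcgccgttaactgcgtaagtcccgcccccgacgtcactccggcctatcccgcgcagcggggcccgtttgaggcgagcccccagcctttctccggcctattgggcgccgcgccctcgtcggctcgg
1700007K13Rik (chr2:28466275-28466574, minus strand): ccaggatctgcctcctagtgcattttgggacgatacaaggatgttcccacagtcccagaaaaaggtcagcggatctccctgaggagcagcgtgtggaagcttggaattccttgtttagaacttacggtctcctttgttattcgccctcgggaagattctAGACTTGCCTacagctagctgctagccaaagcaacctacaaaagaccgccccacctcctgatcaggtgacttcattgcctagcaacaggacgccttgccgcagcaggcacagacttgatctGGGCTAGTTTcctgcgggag
The Mdm2, Ccng1 and Siva1 windows hold 1 decamer each and that of 1700007K13Rik holds 2, with more than 13 bases between them. Pairs of decamers with at most 13 bases between them were searched as well. Such a pair was found for 0.0477% of the tested genes with a window. It was found in no window of the genes called lower, the genes called higher or the tested p53 targets. Only exact matches to the p53 consensus were counted, so a pair with a mismatched base was missed by this search. The decamer was searched by the p53 consensus on either strand. Shares are of genes, and a gene counted as holding a match if any of its windows did. Of 27025 genes with a RefSeq window of this length 9.55% held at least 1 match. Windows were found for 12588 of the tested genes, and 8.56% of these genes held a match. Among the genes called lower it was 16 of 144 (11.1%), among those called higher 7 of 94 (7.45%), and among the tested p53 targets 18 of 62 (29.0%). Of these 18 targets, Gadd45a, Wrap53 and Sesn1 had differences above 0 in p53KO (0.30, 0.21 and 0.07), and the others had differences below 0. A match is a description of letters in the window and not a site of binding.

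Of the arrest genes 2 of 12 were called lower, and the list's median was -0.37. Psrc1, a microtubule-binding protein of the spindle and a p53 target, read 5.82, 5.88, 5.22, 5.05 and 5.15 in WT and 4.38, 4.67, 4.08, 4.74 and 4.64 in p53KO. The groups did not overlap, and the log2 difference was -1.11 (SE 0.21, limma adjusted p = 0.00855). Tob1, an antiproliferative protein, fell by 0.65 (SE 0.15, adjusted p = 0.0289), from 8.55 to 9.65 in WT to 8.24 to 8.86 in p53KO. Plk2, a damage-induced polo-like kinase, read 6.52 to 8.57 in WT and 6.12 to 6.92 in p53KO and was not called (-0.97, SE 0.31, adjusted p = 0.101). The call of Psrc1 ended without p53KO replicate 1 (adjusted p = 0.0506). That of Tob1 ended without p53KO replicates 1 or 2 or WT replicate 2, at up to 0.0915.

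Of the death genes 5 of 17 were called lower, with a median of -0.42. Siva1, a pro-apoptotic adaptor, read 7.66, 7.93 and 7.49 on the WT arrays of set 1 and 6.93 and 6.60 on the p53KO arrays of that set. On the other sets it read 6.83 and 6.83 in WT and 7.21, 7.28 and 7.23 in p53KO. The order of the groups was thus turned between the sets, and the fitted difference of -1.05 (SE 0.19, limma adjusted p = 0.00649) rests on the set term, without which the adjusted p was 0.622. Phlda3, an inhibitor of Akt, read 6.91, 6.73, 6.10, 5.89 and 5.75 in WT and 5.52, 5.82, 4.75, 4.93 and 5.24 in p53KO. Only p53KO replicate 2 reached into the WT range, and the difference was -0.93 (SE 0.19, adjusted p = 0.0164). Apaf1, the core of the apoptosome, fell by 0.76 (SE 0.16, adjusted p = 0.0205), Tnfrsf10b, a death receptor for TRAIL, by 0.96 (SE 0.23, adjusted p = 0.0314), and Pdrg1 by 0.71 (SE 0.18, adjusted p = 0.0445). Pdrg1 carried an adjusted p of 0.929 without the set term, and Apaf1 one of 0.333. Aen, a nuclease of apoptosis, was below WT on all 5 p53KO arrays, at 4.53 to 5.14 against 5.38 to 5.74, but was not called (-0.63, SE 0.18, adjusted p = 0.0664). Fas, another death receptor, was not called (-0.21, SE 0.20, adjusted p = 0.635). Bbc3 (PUMA) read 5.12 to 5.48 in WT and 4.79 to 5.45 in p53KO, and Pmaip1 (NOXA) 4.96 to 5.16 and 4.93 to 5.30. Neither gene of these BH3-only proteins was called, with differences of -0.0015 (SE 0.16, adjusted p = 0.998) and -0.10 (SE 0.15, adjusted p = 0.788). The call of Siva1 ended without p53KO replicate 2 (adjusted p = 0.0685) and that of Phlda3 without replicate 1 (0.0730), while Apaf1, Tnfrsf10b and Pdrg1 lost theirs without either, at up to 0.0959, 0.118 and 0.124. Apaf1, Tnfrsf10b and Pdrg1 were also lost without WT replicate 2 (0.0521, 0.0721 and 0.0639), Tnfrsf10b and Pdrg1 without WT replicate 1 (0.0675 and 0.0769), and Pdrg1 without WT replicates 4 or 5 or p53KO replicates 3 or 5.

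Repair and nucleotide supply was the group of targets with a median nearest to 0 (-0.01), and 1 of its 12 tested genes was called lower. Mgmt, which removes alkyl groups from guanine, read 6.03, 6.51, 6.57, 5.44 and 5.79 in WT and 5.28, 5.40, 5.28, 5.56 and 5.56 in p53KO, a difference of -0.82 (SE 0.18, limma adjusted p = 0.0226). WT replicate 4 lay within the p53KO range. The call ended without p53KO replicate 1 (adjusted p = 0.130) or 2 (0.131) and without the set term (0.102). Polk, a translesion polymerase, read 6.42 to 7.29 in WT and 6.28 to 6.58 in p53KO and missed the threshold (-0.61, SE 0.16, adjusted p = 0.0511). Ercc5, an endonuclease of nucleotide excision repair, was lower on all 5 p53KO arrays (6.39 to 6.86 against 6.94 to 7.48) and was not called (-0.45, SE 0.17, adjusted p = 0.151). Ddb2, the damage sensor of the same pathway, was the target with all p53KO arrays above all WT arrays, at 5.83 to 6.17 against 5.60 to 5.83, and was not called either (0.23, SE 0.13, adjusted p = 0.372). Ddias, a suppressor of apoptosis after damage, read 6.42 to 7.99 in WT and 6.29 to 7.25 in p53KO (-0.52, SE 0.33, adjusted p = 0.450).

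The targets of metabolism and other roles held 6 of the 15 calls among 22 genes, with a median of -0.43. Ephx1, which hydrolyses epoxides of xenobiotics, read 9.59, 10.07, 9.64, 8.96 and 9.69 in WT and 7.99, 7.99, 7.87, 8.19 and 7.80 in p53KO. The groups did not overlap, and the difference was -1.68 (SE 0.17, limma adjusted p = 3.12e-06, 3.20-fold lower). Dglucy, the mitochondrial D-glutamate cyclase, read 5.98, 6.36, 5.87, 5.58 and 5.98 against 4.79, 4.96, 4.73, 5.42 and 5.23, again without overlap (-1.14, SE 0.15, adjusted p = 3.10e-04, 2.21-fold lower). Dcxr, which reduces dicarbonyls and L-xylulose, read 8.45, 8.67, 8.12, 7.79 and 8.22 in WT and 7.23, 7.30, 7.03, 7.48 and 7.07 in p53KO (-1.34, SE 0.21, adjusted p = 0.00216). Sulf2, a heparan sulfatase, fell by 1.01 (SE 0.18, adjusted p = 0.00522), Crip2 by 1.04 (SE 0.20, adjusted p = 0.00803) and the phosphatase gene Ptp4a3 by 0.64 (SE 0.15, adjusted p = 0.0329). In all 6 genes every p53KO array was below every WT array, as it was for Zfp365, which was not called (-0.63, SE 0.19, adjusted p = 0.0826). Ephx1, Dglucy and Dcxr were called under every alternative run. Sulf2 and Crip2 lost their calls without p53KO replicate 2 (adjusted p = 0.0545 and 0.0539), and Ptp4a3 without p53KO replicates 1 or 2 or WT replicates 1 or 2, at up to 0.148.

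**Figure D2:**
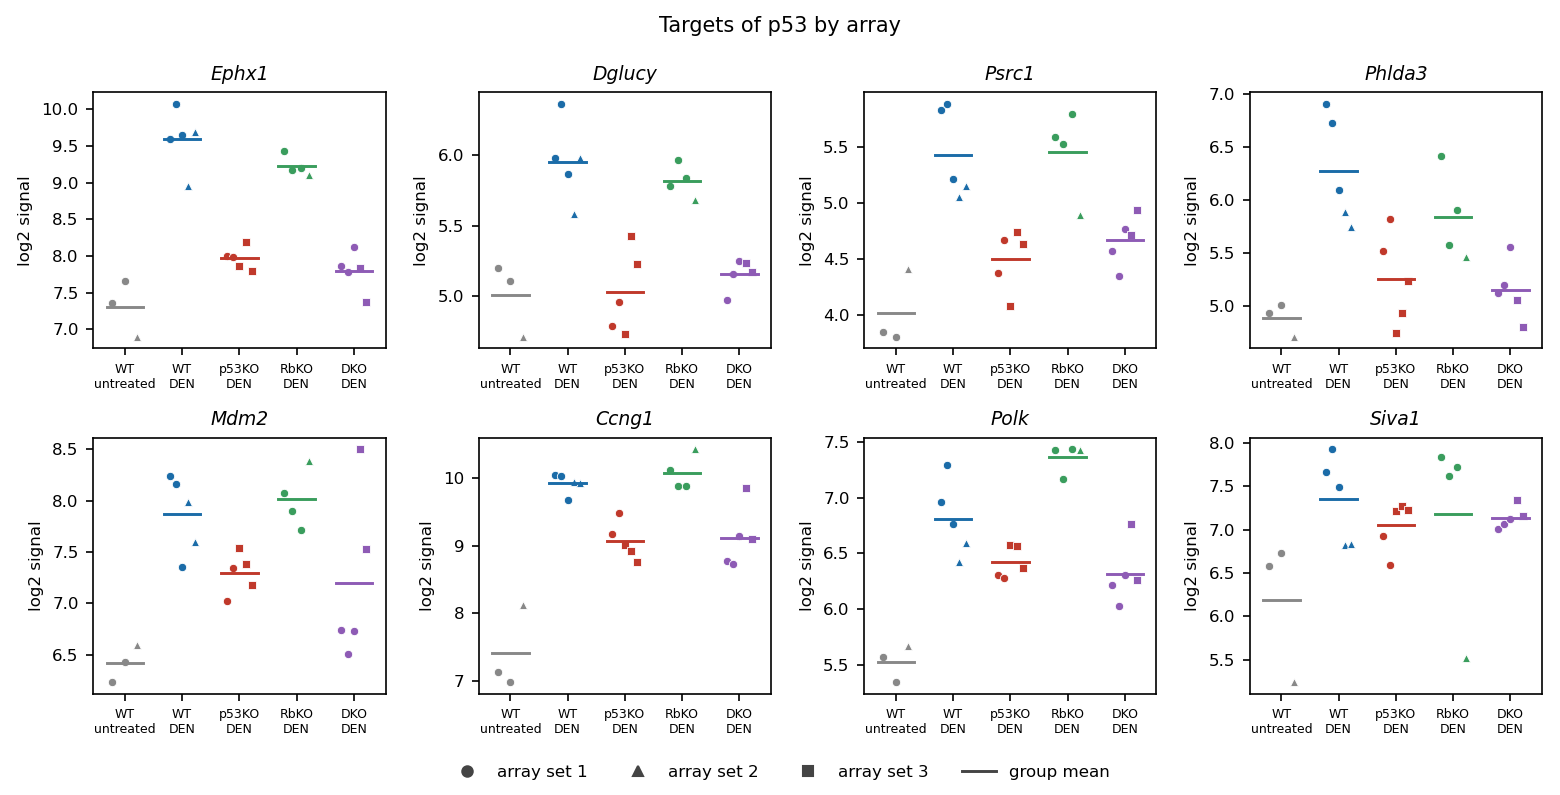
Log2 signal (vertical) of 8 p53 targets on each array of untreated WT and of DEN-treated WT, p53KO, RbKO and DKO livers (horizontal); symbols give the array set and lines the plain group means. Ephx1, Dglucy, Psrc1 and Ccng1 separate the 5 WT from the 5 p53KO arrays, with WT at 8.96 to 10.07 and p53KO at 7.80 to 8.19 for Ephx1, while Siva1 changes order between set 1 and the other sets.

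Several of the largest falls lay outside the target lists. Gria3, a subunit of AMPA-type glutamate receptors, read 6.52, 7.33, 6.84, 5.72 and 6.38 in WT and 4.72, 5.02, 5.61, 5.93 and 5.58 in p53KO. The overlap came from WT replicate 4 and p53KO replicate 4, and the difference was -1.77 (SE 0.27, limma adjusted p = 0.00135, 3.40-fold lower). Ces2e read 9.19, 9.69, 9.32, 8.63 and 8.92 against 7.88, 7.61, 7.48, 8.07 and 7.56, without overlap (-1.56, SE 0.15, adjusted p = 3.09e-06). The uncharacterised 1700007K13Rik read 7.91, 7.69, 6.76, 7.52 and 6.52 against 6.00, 6.01, 5.70, 5.27 and 4.50, also without overlap (-1.74, SE 0.31, adjusted p = 0.00624). Cplane1, a protein of ciliogenesis, had the largest fall of all called genes (-1.82, SE 0.39, adjusted p = 0.0186) and ranged from 6.27 to 8.85 in WT and from 6.22 to 6.93 in p53KO. Cox6b2, a testis form of a cytochrome c oxidase subunit, read 7.27 to 8.23 in WT and 5.79 to 7.08 in p53KO (-1.49, SE 0.28, adjusted p = 0.00736). Ckmt1, the mitochondrial creatine kinase, fell by 1.29 (SE 0.26, adjusted p = 0.0124), and the membrane protein gene Tmem19 by 1.23 (SE 0.20, adjusted p = 0.00216). Tmem19 read 6.69 to 7.16 on the WT arrays of set 1 but 4.66 and 4.68 on those of set 2, below all p53KO arrays (5.24 to 5.61), so that its call needs the set term (adjusted p = 0.431 without it). Ckmt1 was likewise not called without that term (0.0778). Gria3 and Ces2e were called under every alternative run. Cplane1 lost its call without the set term (0.123), with the mean of all its probe sets (0.0923), with only the compared groups (0.157) and without p53KO replicate 1 (0.0630), and Cox6b2 without p53KO replicate 1 (0.0715) or 2 (0.0681). Members of the Ces2 and Gstp families are near-identical, and signal of a close copy cannot be told apart from that of the named gene.

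Enzymes of detoxification moved in both directions. Of 17 tested targets of Nrf2, the factor of the oxidative and electrophile response, 2 were called lower and none higher, the median was -0.44, and 15 were below 0 (52.4% of all tested genes were). Gstp1, which conjugates electrophiles to glutathione, read 10.89, 11.40, 11.17, 10.24 and 10.57 in WT and 9.57, 10.07, 9.59, 9.78 and 9.34 in p53KO, without overlap (-1.53, SE 0.21, limma adjusted p = 3.10e-04, 2.90-fold lower). Gstm1, of the mu class, fell by 0.67 (SE 0.16, adjusted p = 0.0314), from 10.14 to 11.62 in WT to 9.72 to 10.02 in p53KO. Of 21 genes of xenobiotic metabolism 2 were called higher and 2 lower. The cytochrome P450 gene Cyp2c55 read 6.13, 7.48, 6.58, 5.27 and 5.31 in WT and 7.76, 7.65, 7.72, 7.68 and 7.49 in p53KO (0.95, SE 0.21, adjusted p = 0.0210), and Cyp3a25 rose by 0.71 (SE 0.18, adjusted p = 0.0402), with 9.99 to 10.42 in WT and 10.22 to 11.13 in p53KO. Cyp2d9 fell by 0.94 (SE 0.18, adjusted p = 0.00995) and Cyp2d10 by 0.75 (SE 0.17, adjusted p = 0.0276). In the list of DEN activation and alkylation repair, where 1 of 12 was called, Cyp2b10, a P450 induced through the receptor CAR, rose by 1.20 (SE 0.29, adjusted p = 0.0314). It read 6.56, 5.03, 5.22, 3.92 and 4.89 in WT and 6.80, 7.17, 6.04, 6.27 and 6.48 in p53KO, with WT replicate 1 inside the p53KO range. Akr1c19, an aldo-keto reductase, rose without overlap from 5.66 to 7.03 in WT to 7.23 to 8.39 in p53KO (1.30, SE 0.30, adjusted p = 0.0248). Gstp1 was called under every alternative run. The others depended on the p53KO arrays of set 1. Cyp2d10 and Cyp3a25 also needed the fixed set term, with adjusted p of 0.296 and 0.217 without it and 0.104 and 0.0797 with the set as a random block. Gstm1, Cyp2c55, Cyp3a25, Cyp2d10, Cyp2b10 and Akr1c19 lost their calls without p53KO replicate 1 and also without replicate 2, at adjusted p up to 0.131, 0.0998, 0.290, 0.202, 0.194 and 0.149, and Cyp2d9 without p53KO replicate 2 (0.0685). Apart from Cyp2c55 and Cyp2d9, these also lost their calls without WT replicate 2, at 0.0544 for Gstm1, Cyp3a25 and Cyp2d10, 0.0773 for Cyp2b10 and 0.0641 for Akr1c19. Cyp2b10 was further lost without WT replicate 3, and Cyp3a25 without WT replicates 4 or 5 or p53KO replicate 3.

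Genes of uptake, growth factor binding and intermediary metabolism fell in single members. Slco1a1, an organic anion transporter with male-biased expression in adult liver, read 6.26, 7.55, 7.39, 6.26 and 6.91 in WT and 5.68, 5.07, 4.92, 4.69 and 5.61 in p53KO, without overlap (-1.63, SE 0.34, limma adjusted p = 0.0158). The 2 p53KO arrays with high Xist, replicates 1 and 5, held the highest and the next Slco1a1 values of that group, so the 3 arrays with low Xist were the lower ones. Cyp2d9, which is also male-biased, read 5.10 and 5.17 on those 2 arrays and 4.68 to 4.97 on the other p53KO arrays, against 5.62 to 6.62 in WT. Igfbp2, a carrier of insulin-like growth factors, fell by 1.25 (SE 0.33) at an adjusted p of 0.049951, from 7.56 to 9.57 in WT to 6.58 to 7.95 in p53KO. Pck1, the enzyme that commits to gluconeogenesis, fell by 0.89 (SE 0.23, adjusted p = 0.0402), Fads2, a fatty acid desaturase, by 1.06 (SE 0.26, adjusted p = 0.0347), Bdh1, of ketone body metabolism, by 0.94 (SE 0.23, adjusted p = 0.0329), and Serpina3n, a protease inhibitor of the acute phase, by 0.85 (SE 0.16, adjusted p = 0.00702). Sqle, squalene epoxidase of cholesterol synthesis, rose by 0.83 (SE 0.20, adjusted p = 0.0328). These were the only calls in their lists, with 1 of 12 genes of gluconeogenesis, amino acids and urea, 1 of 15 of fat oxidation, 1 of 22 of the acute phase, 1 of 12 of growth hormone and IGF, and 1 lower and 1 higher of 21 of lipid synthesis. Serpina3n kept its call whichever array was left out, with adjusted p up to 0.0424. Slco1a1 and Cyp2d9 lost theirs without p53KO replicate 2 (0.108 and 0.0685), and Pck1, Fads2, Bdh1 and Sqle without p53KO replicate 1 or 2, at up to 0.203, 0.256, 0.213 and 0.204. WT arrays decided calls as well, with Pck1 lost without WT replicates 1, 3, 4 or 5, Fads2 without 2, 4 or 5, Bdh1 without 2 and Sqle without 3. Igfbp2 was lost under 15 of the 23 alternatives.

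Markers of endothelium and of matrix cells had mostly negative differences in p53KO livers. All 16 tested endothelial markers had differences below 0, with a median of -0.39, against 52.4% of all tested genes below 0, although none was called. In DKO against RbKO 15 of the 16 were below 0, with a median of -0.48, and 3 were called lower. Their mean level was 6.10 to 6.39 on the WT arrays and 5.66 to 5.98 on the p53KO arrays, which do not overlap. Clec4g and Stab2, of sinusoidal endothelium, differed by -0.61 (SE 0.17, limma adjusted p = 0.0628) and -0.56 (SE 0.18, adjusted p = 0.0929). Gpr182, a chemokine-scavenging receptor of endothelium, was called. It read 6.51, 7.02, 6.62, 7.13 and 7.53 in WT and 5.75, 5.64, 5.67, 5.82 and 5.81 in p53KO, a separation on all arrays (-1.18, SE 0.21, adjusted p = 0.00624). The call ended without p53KO replicate 2 (0.0539). Of 16 stellate and matrix genes 2 were called lower and none higher, with 15 below 0. Sparc, a matrix glycoprotein, fell by 0.54 (SE 0.12, adjusted p = 0.0285) and Acta2, smooth muscle actin, by 0.77 (SE 0.19, adjusted p = 0.0365). Both lost their calls without p53KO replicate 1 or 2, at up to 0.203 and 0.129, and without WT replicate 1 (0.0548 and 0.0652), Sparc also without WT replicate 2 and Acta2 without WT replicates 3 or 5 and within set 1 (0.0742). Macrophage markers had a median of -0.35 with 9 of 14 below 0 and no call, and their mean levels overlapped, at 5.75 to 6.37 in WT and 5.54 to 6.06 in p53KO. Lymphocyte, neutrophil, erythroid and cholangiocyte markers had no call. In bulk tissue fewer cells of a type and less RNA per cell cannot be told apart, and the part of cell composition in the other differences was not tested.

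Few genes of replication, mitosis and repair by recombination were called, all of them higher in p53KO, and the medians of these lists were larger over all arrays than within set 1. Of 31 tested genes of DNA replication and E2F, 3 were called higher (0.708% of all genes were) and none lower, with a median of 0.18. Of 29 genes of mitosis 1 was called higher, the median was 0.61 and none was below 0. Of 17 genes of recombination and cross-link repair 2 were called higher, with a median of 0.42. Within array set 1 the medians were -0.0007, 0.14 and 0.20, and without set 2 they were 0.10, 0.37 and 0.38. All p53KO arrays lay above all WT arrays for 5, 9 and 9 genes of these lists, against 2.63% of all tested genes. The mean level of the mitotic genes was 4.83 to 6.11 on the WT arrays and 6.11 to 6.83 on the p53KO arrays. Without a set term 9, 21 and 11 genes of the lists were called higher.

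Among the genes of S phase, Pclaf, a partner of the sliding clamp PCNA, read 6.83, 6.65, 6.90, 5.19 and 5.54 in WT and 7.68, 7.60, 7.90, 7.98 and 7.95 in p53KO. The groups were separated also within set 1, and the difference was 1.30 (SE 0.22, limma adjusted p = 0.00416, 2.46-fold higher), 0.84 within set 1. Rfc4, a subunit of the clamp loader, read 5.88, 6.06, 6.06, 5.14 and 5.20 against 6.80, 6.54, 6.98, 6.72 and 7.01 (1.08, SE 0.23, adjusted p = 0.0186). Ccne2, cyclin E2, rose by 1.03 (SE 0.26, adjusted p = 0.0372) and Prim1, the primase subunit, by 0.99 (SE 0.25, adjusted p = 0.0355), neither with any overlap. Chek1, the kinase that restrains the cycle when replication forks stall, read 4.50, 5.40, 5.47, 4.69 and 4.31 in WT and 6.21, 5.79, 6.74, 6.63 and 6.52 in p53KO (1.17, SE 0.24, adjusted p = 0.0164). Fancb, of the Fanconi anemia core complex, read 3.84, 3.86, 4.04, 3.66 and 3.65 against 4.88, 4.56, 5.01, 5.57 and 4.99 (1.10, SE 0.21, adjusted p = 0.0101). The WT arrays of set 2 were here close to those of set 1. All WT values lay near the 3.33 under which genes were left out as dim, so a lower set 2 could show little. Fignl1, of recombination repair, rose by 1.14 (SE 0.23, adjusted p = 0.0127). Pclaf was called under every alternative run, and Fancb under all but that with only the compared groups in the fit (0.0558). Rfc4 and Chek1 were not called within set 1 (0.0590 and 0.0761), and Chek1 and Fignl1 were not called with only the compared groups in the fit (0.106 and 0.0725). Rfc4, Chek1 and Fignl1 lost their calls without p53KO replicate 1 (0.0660, 0.0694 and 0.0653), Ccne2 without p53KO replicates 1, 2 or 3 or WT replicate 5, at up to 0.124, and Prim1 without p53KO replicates 1, 2 or 3, at up to 0.136.

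Among mitotic genes Ndc80, of the kinetochore, read 5.78, 6.17, 6.42, 4.88 and 5.07 in WT and 6.84, 6.93, 7.18, 7.19 and 7.37 in p53KO, with no overlap (1.25, SE 0.23, limma adjusted p = 0.00644, 0.76 within set 1). Cenpk, a centromere protein, read 7.32, 7.74, 8.11, 5.16 and 5.23 in WT and 8.48, 8.59, 8.85, 8.70 and 8.70 in p53KO (1.34, SE 0.33, adjusted p = 0.0345). WT replicates 4 and 5 lay more than 2 log2 units under the other WT arrays. Shcbp1, Ncapg (a condensin subunit), Depdc1a and Kif20b (a kinesin of cytokinesis) rose by 1.28, 1.23, 1.22 and 1.18 (adjusted p = 0.0314, 0.0484, 0.0288 and 0.0471), each with all p53KO arrays above all WT arrays. Bub1, of the spindle checkpoint, was not called (1.28, SE 0.35, adjusted p = 0.0585). Ndc80 kept its call whichever array was left out. Cenpk, Shcbp1 and Depdc1a lost theirs without p53KO replicate 1 or 2, at up to 0.125, 0.118 and 0.114. Ncapg and Kif20b lost theirs without WT replicates 4 or 5 or any p53KO array, at up to 0.146 and 0.106, and within set 1 they were not called (0.0993 and 0.139).

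**Figure D3:**
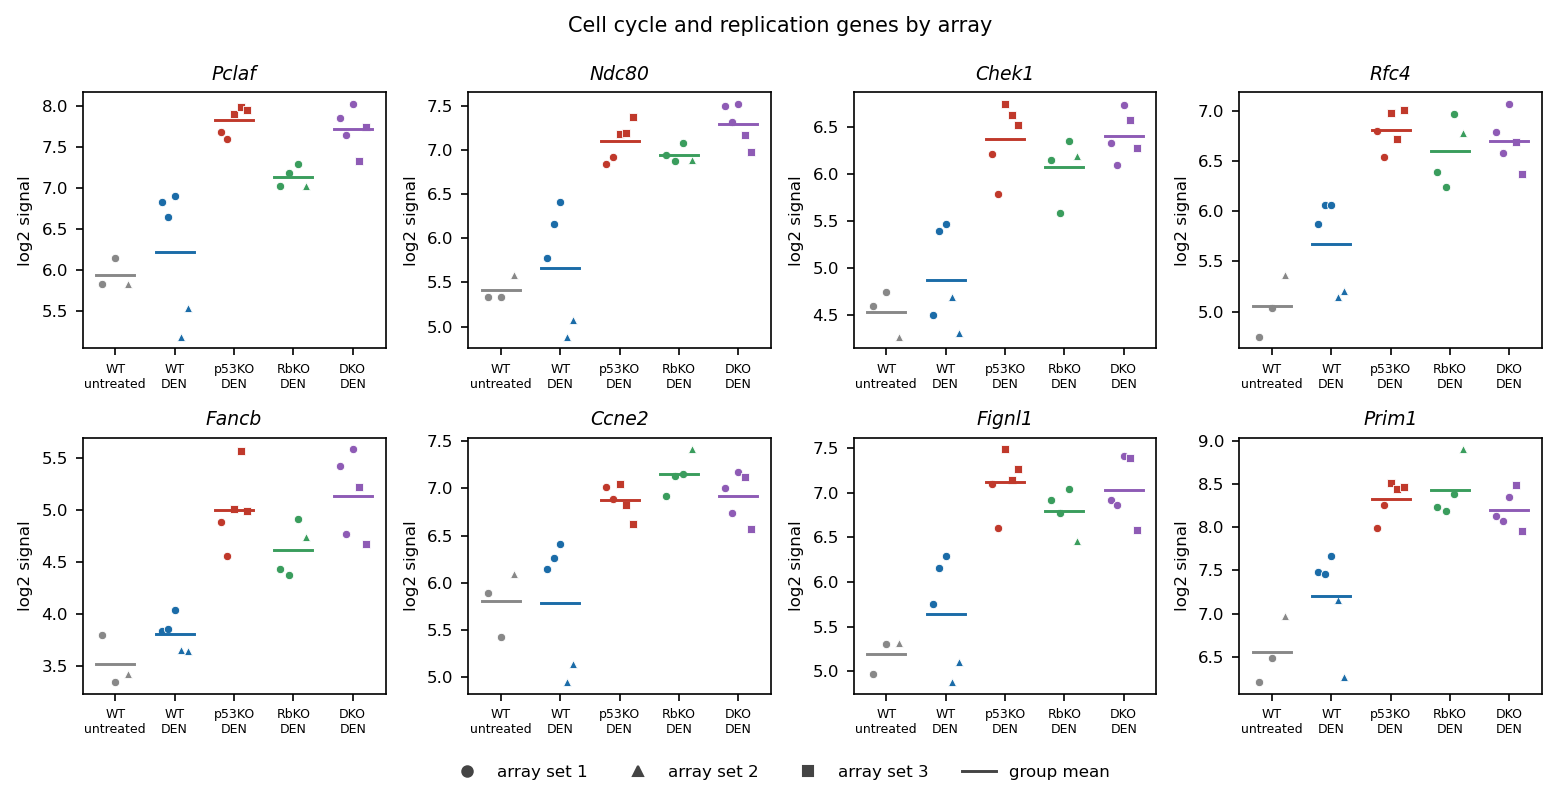
Log2 signal (vertical) of 8 genes of replication, mitosis and recombination repair by array in untreated WT and in DEN-treated WT, p53KO, RbKO and DKO livers (horizontal); symbols give the array set and lines the plain group means. All 5 p53KO arrays lie above all 5 WT arrays, as for Pclaf at 7.60 to 7.98 against 5.19 to 6.90, and the WT arrays of set 2 (triangles) are the lowest of their group for most of these genes.

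Motifs of cell cycle promoters were counted in the same windows. A gene again counted if any of its windows held the letters. The letters TTTGAA, the core of the cell cycle homology region, were searched on either strand. They were found for 20.2% of all genes with a window and for 15.1% of the tested ones. Among genes called higher it was 21 of 94 (22.3%) and among those called lower 16 of 144 (11.1%). In the replication and mitosis lists it was 22 of 49 (44.9%). The letters CCAAT were found for 41.1% of all genes with a window. Among those with a window it was 59.6% of genes called higher, 38.2% of genes called lower and 67.3% of the 2 lists.

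The largest rise was that of Rsph4a, by 2.28 (SE 0.41, limma adjusted p = 0.00624, 4.86-fold higher). It read 7.02, 5.64, 5.83, 4.19 and 4.72 in WT and 7.97, 7.84, 7.52, 6.98 and 7.50 in p53KO, where p53KO replicate 4 lay just under WT replicate 1. Its call held under every alternative run. Mns1, a protein of sperm flagella and motile cilia, read 4.20 to 4.65 in WT and 5.07 to 5.83 in p53KO (1.001, SE 0.25, adjusted p = 0.0392). Mup3, a major urinary protein, rose by 1.70 (SE 0.42, adjusted p = 0.0347). It read 8.82, 7.40 and 7.49 on the WT arrays of set 1 and 5.01 and 5.35 on those of set 2, against 7.99 to 9.20 in p53KO, and within set 1 it was not called (0.118). Major urinary protein genes are near-identical, and the probe set cannot be tied to Mup3 alone. AW112010, an immune transcript, rose by 1.16 (SE 0.24, adjusted p = 0.0164), H2bc21, a histone gene, by 1.12 (SE 0.25, adjusted p = 0.0250), and Cdkn1c, the CDK inhibitor p57, by 0.64 (SE 0.16, adjusted p = 0.0363), from 5.78 to 6.28 in WT to 6.39 to 6.60 in p53KO. AW112010, H2bc21, Cdkn1c, Mns1 and Mup3 lost their calls without p53KO replicate 2, at adjusted p of 0.120, 0.134, 0.0545, 0.0730 and 0.124, and H2bc21, Cdkn1c and Mns1 without replicate 1 as well. Without WT replicate 2 Cdkn1c, Mns1 and Mup3 were lost (0.0848, 0.0537 and 0.0639), without WT replicate 4 Cdkn1c and Mns1, and without WT replicate 5 Mns1 and Mup3. Cdkn1c was also lost without p53KO replicate 3 and within set 1 (0.0856), and Mns1 without replicate 5. Without the set term AW112010, Cdkn1c and Mup3 were not called (0.0505, 0.0692 and 0.0612). Snord82, a small nucleolar RNA, read 7.39 to 7.92 in WT and 5.67 to 7.36 in p53KO, with p53KO replicate 1 next to the WT range (-1.24, SE 0.30, adjusted p = 0.0314). Its call ended without p53KO replicate 2 (0.229) or WT replicate 2 (0.0565) and within set 1 (0.0951).

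Loss of p53 where Rb was deleted as well was followed by comparing DKO with RbKO livers, which share no array with the p53KO and WT groups. Both comparisons come from the same fit, however, and share its set shifts and its estimate of the spread, so they are not independent. There 164 genes were called (1.03%), 23 higher (0.144%) and 141 lower (0.884%). Of the 171 genes lower in p53KO, 159 (93.0%) were below 0 in this comparison too, as were 52.9% of all tested genes, and their median was -0.71 with Rb and -0.35 without. Within set 1 alone it was also 159, with medians of -0.72 and -0.30. Called lower in both were 37 genes, 21.6% of the 171 and 26.2% of the 141, among them Ephx1, Ces2e, Gria3, 1700007K13Rik, Dglucy, Ckmt1, Cox6b2, Tmem19, Mdm2, Psrc1 and Apaf1. For Ephx1 the difference between DKO and RbKO was -1.47 (limma adjusted p = 2.69e-05) and for Gria3 -1.69 (adjusted p = 9.26e-04). Of the p53 targets 10 of 72 were called lower there and none higher, with a median of -0.32, and 5 were called lower in both. For none of the 72 was the difference between both p53 effects called. Polk and Ccng1, not called with Rb, were lower without it, by 1.20 (adjusted p = 2.19e-04) and 0.89 (adjusted p = 0.0389).

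Genes called higher in p53KO lay on both sides of 0 where Rb was deleted. Of the 113, 64 (56.6%) were above 0 in DKO against RbKO, as were 47.1% of all tested genes, and the median was 0.77 with Rb and 0.03 without. Within set 1 alone 75 (66.4%) were above 0, with medians of 0.61 and 0.12. Pttg1, securin, was the single gene called higher in both, which is 0.885% of the 113 and 4.35% of the 23. The cell cycle genes had these levels in the groups without Rb. Pclaf read 7.03 to 7.29 in RbKO and 7.33 to 8.02 in DKO, Ndc80 6.88 to 7.08 and 6.98 to 7.52, and Prim1 8.18 to 8.90 and 7.95 to 8.49. The mean level of the mitotic list was 6.38 to 6.62 in RbKO and 6.52 to 6.82 in DKO. The lists of replication, mitosis and recombination repair had medians of -0.13, -0.07 and 0.01 in DKO against RbKO, with no call. Within set 1 these medians were -0.07, 0.21 and 0.13, beside -0.0007, 0.14 and 0.20 for p53KO against WT. The median over the mitotic genes of the difference between both p53 effects was 0.81 over all arrays and -0.03 within set 1, so the gap between livers with and without Rb was not seen for this list within set 1.

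**Figure D4:**
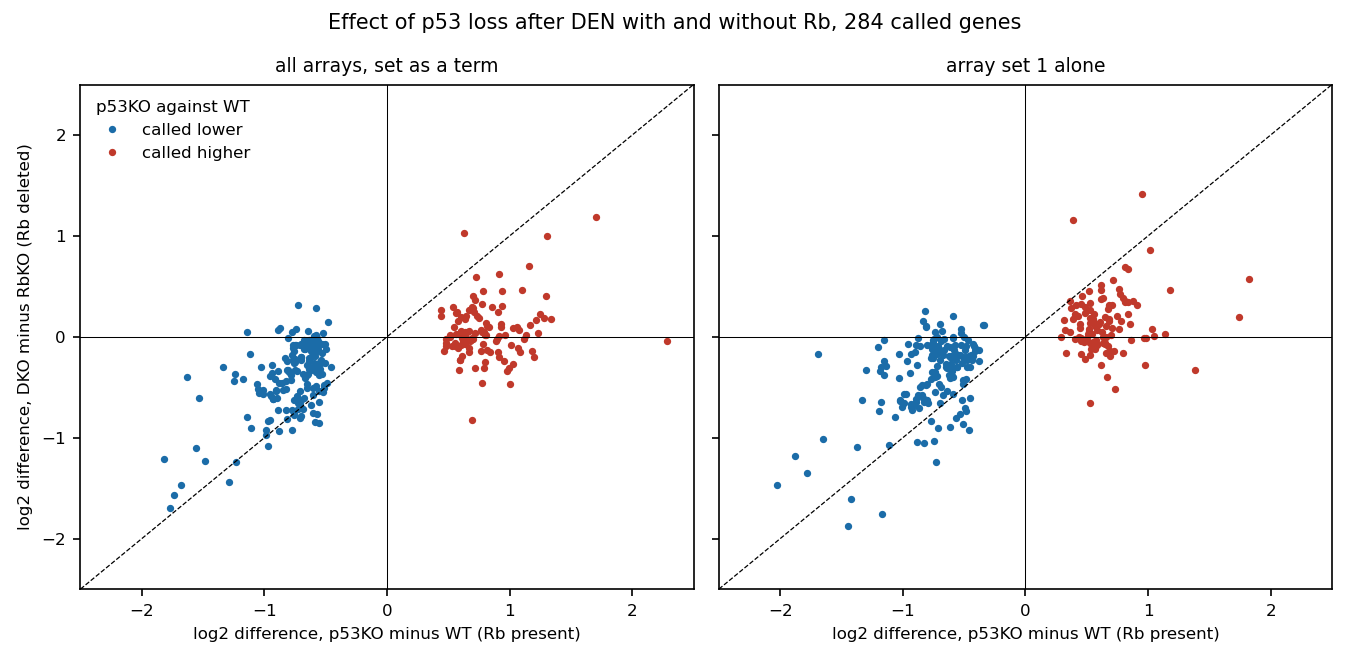
Log2 difference after p53 loss with Rb present (p53KO minus WT, horizontal) against that with Rb deleted (DKO minus RbKO, vertical) for the 284 genes called in the former, over all arrays (left) and within array set 1 alone (right); the dashed line marks equal differences. Most genes called lower (blue) lie below 0 on both axes, 159 of 171, while those called higher (red) lie around 0 on the vertical axis, with 64 of 113 above it.

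The difference between both p53 effects was called for 68 genes (0.426%), 52 with the p53 effect higher in the presence of Rb (0.326%) and 16 with it lower (0.100%). This count was unstable. It came to 5 without set 2, to 1 without a set term, to 210 within set 1, and to 6 without WT replicate 4 or likewise without RbKO replicate 4. The genes called higher in p53KO included 18 of these, and the genes called lower 4. Rsph4a had the largest positive difference, 2.32 (limma adjusted p = 0.0349), as it read 6.45 to 7.57 in RbKO and 6.47 to 7.58 in DKO. Snx7, a sorting nexin, read 6.53 to 7.35 in WT and 7.54 to 7.81 in p53KO, but 7.50 to 8.05 in RbKO and 6.43 to 7.11 in DKO. Its p53 effects were thus 0.69 (SE 0.18, adjusted p = 0.0431) and -0.83 (SE 0.17, adjusted p = 0.0130), and their difference of 1.52 (adjusted p = 0.00230) was called whichever array was left out. Gen1, a Holliday junction resolvase, Mns1 and Prim1 had differences of 1.32, 1.46 and 1.31 (adjusted p = 0.0342, 0.0342 and 0.0470). Capsl and Gipc2 had differences of 1.72 and 1.55 (adjusted p = 0.0342 and 0.0366), with DKO levels of 4.64 to 5.38 and 3.93 to 4.87 against 6.20 to 6.65 and 4.64 to 6.65 in RbKO. Of 19 arrays left out in turn, 12 ended the call of the difference for Gipc2, 11 for Rsph4a and 11 for Prim1. It was 8 for Mns1, 7 for Gen1 and 6 for Capsl. The highest adjusted p came without RbKO replicate 4 for Rsph4a (0.181), Gen1 (0.156), Prim1 (0.195) and Capsl (0.158). For Mns1 it came without DKO replicate 5 (0.0879). Within set 1 the difference was not called for Rsph4a (0.0936), Prim1 (0.0738), Capsl (0.239) and Gen1 (0.0515). For Gipc2 the highest came without p53KO replicate 2 (0.0727). Of the rises in p53KO, that of Snx7 was lost within set 1 (0.100) and without WT replicate 3 (0.0893), and those of Snx7 and Gen1 without p53KO replicate 1 (0.0992 and 0.0957), among other arrays.

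In the opposite direction Trim12a had a fitted difference of -2.16 (limma adjusted p = 0.0214). It read 2.54 to 2.68 on 4 WT arrays and 4.65 on WT replicate 3, 2.40 to 3.12 in p53KO, 2.62 to 3.18 in RbKO and 4.50 to 4.88 in DKO, so that WT replicate 3 stood at the DKO level. The values of p53KO, RbKO and the other 4 WT arrays lie under the 3.33 below which genes were left out as dim, so the gene was tested through its high arrays and the size of the difference is uncertain. Trim30d (5.39 on WT replicate 3, 3.41 to 3.71 on the other WT arrays, 5.26 to 6.47 in DKO) and H2-Bl (6.04, 4.42 to 4.82 and 5.18 to 5.94) were likewise high on WT replicate 3 and in DKO. B4galnt1 read 5.34 to 5.91 on WT replicates 3 to 5 and 4.12 and 4.28 on the other WT arrays, 3.90 to 4.29 in p53KO and 4.59 to 5.39 in DKO. The differences between p53 effects were -1.85, -1.39 and -1.64 (adjusted p = 0.0473, 0.0470 and 0.00535). Trim12a, Trim30d and H2-Bl belong to families of close relatives, and the mice are of a mixed strain. The parts of cross-hybridisation and of inherited strain alleles in these differences were not tested. Phlda1 and Bst2, an interferon-induced antiviral protein, had differences of -1.38 and -1.04 (adjusted p = 0.0342 for both), and Bst2 was lower in p53KO against WT (-0.73, SE 0.18, adjusted p = 0.0347). Without RbKO replicate 4 the calls of Trim12a, Trim30d, H2-Bl, Phlda1 and Bst2 were lost (0.0672, 0.165, 0.157, 0.156 and 0.157). Of 19 arrays left out in turn, 1 ended the call of Trim12a, 12 that of Trim30d and 13 that of H2-Bl. It was 6 for Phlda1 and 8 for Bst2. The fall of Bst2 in p53KO was lost without p53KO replicate 1 (0.116) or 2 (0.124) or WT replicate 1 (0.0535). B4galnt1 stayed called whichever array was left out.

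Levels in untreated WT livers place these genes further. DEN-treated p53KO against untreated WT livers, which differ in genotype and treatment, gave 1095 calls (6.86%), with 3.17% of all genes higher and 3.70% lower. DEN-treated against untreated WT gave 636 (3.99%), with 2.08% higher and 1.91% lower. Both share the 3 untreated arrays, and the latter shares the DEN-treated WT arrays with the main comparison, so the values are only set side by side. Ephx1 stood at 6.90 to 7.66 in untreated WT, 2.31 below DEN-treated WT (limma adjusted p = 1.36e-09) and 0.63 below DEN-treated p53KO (adjusted p = 0.0400). Ces2e stood 1.80 below DEN-treated WT (adjusted p = 1.62e-08) and 0.24 below p53KO (adjusted p = 0.456), and Gria3 1.90 (adjusted p = 3.72e-05) and 0.14 (adjusted p = 0.857). These 3 genes do not stand for all falls. Of the 171 genes called lower in p53KO, 50 were called above untreated WT in DEN-treated WT and 3 below. In DEN-treated p53KO 64 of the 171 were called below untreated WT, 3 above and 104 neither, with a median of -0.42. Ccng1 was 2.49 higher in DEN-treated WT (adjusted p = 3.70e-08) and 1.75 higher in DEN-treated p53KO (adjusted p = 1.59e-04) than in untreated WT, and Ddias 2.56 (adjusted p = 1.09e-05) and 2.05 (adjusted p = 0.00104). Of the 72 p53 targets 29 were above untreated WT in DEN-treated WT, with a median of 0.50, and 6 in DEN-treated p53KO, with a median of 0.14, where 2 were below. For Pclaf the values were 0.33 in DEN-treated WT (adjusted p = 0.443) and 1.63 in p53KO (adjusted p = 2.50e-04), and for Chek1 0.36 (adjusted p = 0.448) and 1.53 (adjusted p = 0.00105). Of the 29 mitotic genes 16 were above untreated WT in p53KO, with a median of 0.998, and the median in DEN-treated WT was 0.34. Calls in DEN-treated p53KO against untreated WT came to 206 without untreated WT replicate 1 and 217 without replicate 2.

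Other lists had few or no calls in p53KO against WT. Cdkn1c was the single call among 13 genes of fetal liver and imprinted growth, and Slco1a1 and Cyp2d9 were the 2 calls among 7 sex-linked and sex-biased genes. None was called among 16 genes of inflammatory signalling, 20 interferon-stimulated genes, 18 genes of ATF4 and the unfolded protein response and 15 circadian genes, with medians of -0.13, -0.08, -0.12 and -0.08, and at an unadjusted p under 0.05 there were 3, 1, 6 and 3 genes. Genes next to Trp53 on chromosome 11 were examined for an effect of flanking sequence. Of the 20 nearest tested genes on each side none was called, and chromosome 11 as a whole had 7 genes higher and 14 lower of 1369 (1.53%, against 1.78% of all genes).

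**Figure D5:**
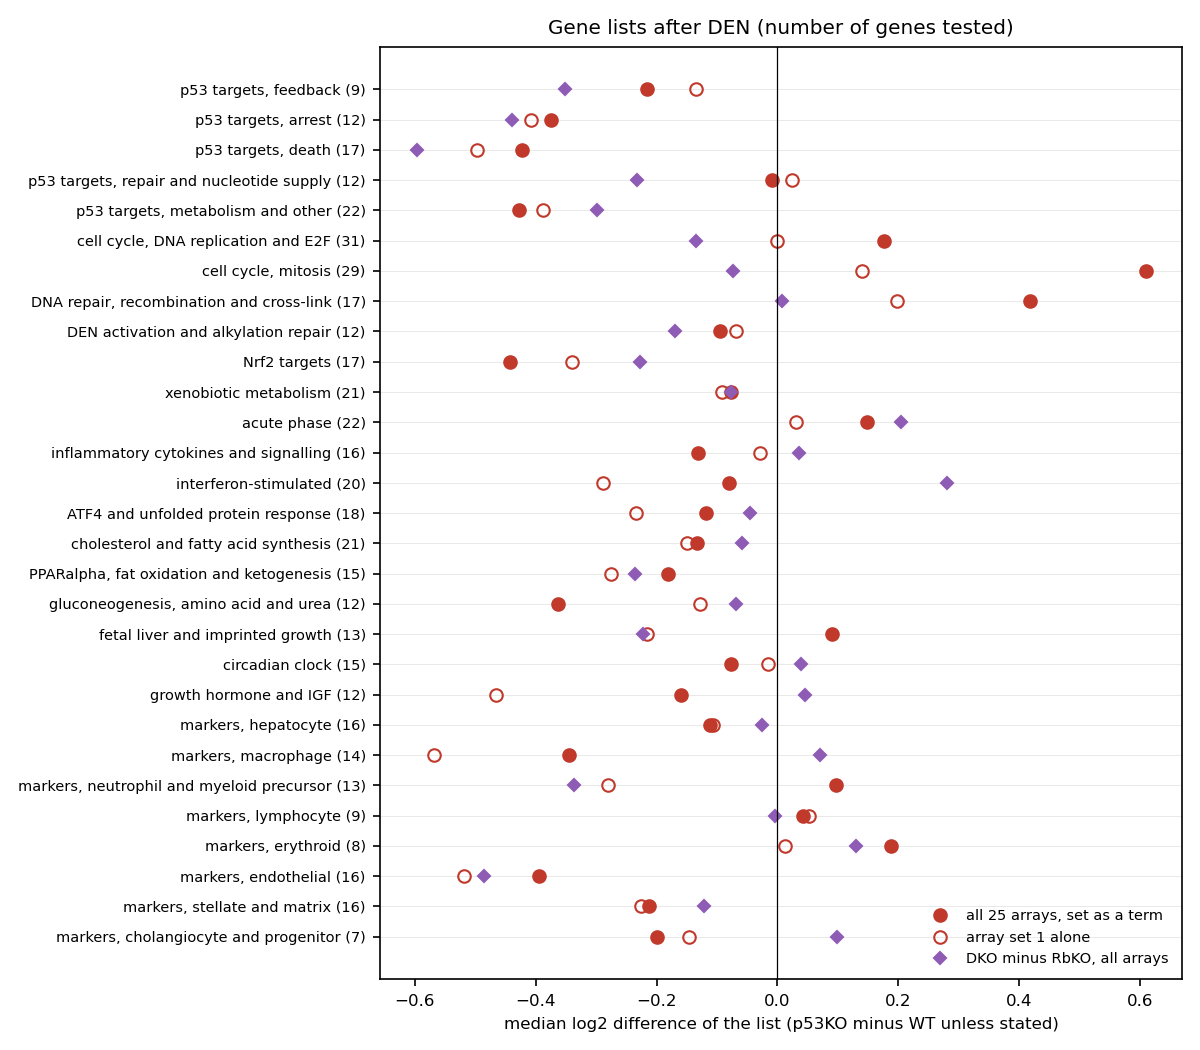
Median log2 difference (horizontal) of each gene list except the sex-linked one (vertical, with the number of genes tested) for p53KO minus WT over all arrays (filled circles), the same within array set 1 alone (open circles) and DKO minus RbKO over all arrays (diamonds). The p53 target lists lie at or below 0 in all but the repair list within set 1, and the mitotic list moves from 0.61 to 0.14 within set 1.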

How the data were processed

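The authors deposited log2 signals from RMA (Affymetrix Expression Console 1.1, per the submitters' processing notes) of biotin-labelled liver RNA; whether the 25 arrays were normalized in 1 run and the genome build are not given in the sources used here. From these, probe sets with 1 gene symbol in the platform annotation (21789 of 35555; 1620 had several and 12146 none) were kept, the probe set with the highest mean stood for a gene (19938), and genes under the 20th percentile (3.33 log2) were left out as dim (3987), which left 15951. limma 3.58.1 in R 4.3.3 estimated a mean for each group and a shift for each array set (3 levels) from all 25 arrays (lmFit, eBayes; 17 residual degrees of freedom), two-sided, with Benjamini-Hochberg adjustment over all tested genes and calls at 0.05. SE is the moderated standard error. The calculation was tested on simulated data. The genes named are Rb1, the 15 largest rises and 15 largest falls among calls with the same sign in set 1, the p53 targets, up to 4 members of each other list in order of p, and the 6 largest differences between p53 effects each way; Pttg1 was named after its values were seen. Members and lists were chosen with earlier results of these data known. A total of 30 gene lists was used. Alternatives were the treatment of the array set, the arrays in the fit, the filter, the probe set rule, the normalization, array weights, trended and robust variance, Xist as a covariate and each array left out in turn.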

Additional observations from a re-analysis of the deposited data

Results flagged for a closer look

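In 182 pairs of a named gene and a group, 8 single arrays stood far from the other 4 of their group, where chance flags about 1 in 20. WT replicate 3 was high for Trim12a (4.65), Trim30d (5.39) and H2-Bl (6.04). WT replicate 5 was low for Rb1 (5.04), WT replicate 1 for Fads2 (8.97) and WT replicate 4 for Mns1 (4.20). Of the p53KO arrays, replicate 5 was low for Ckmt1 (4.72) and replicate 2 high for Cyp3a25 (11.13).

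For 15 named genes the effect of p53 loss differed between livers with and without Rb (limma, adjusted p under 0.05). The difference, p53KO minus WT less DKO minus RbKO, was 2.32 for Rsph4a, 1.72 for Capsl, 1.55 for Gipc2, 1.52 for Snx7, 1.46 for Mns1, 1.32 for Gen1, 1.31 for Prim1, 1.19 for Cyp2c55 and 0.81 for Mcm4, a helicase subunit. It was -2.16 for Trim12a, -1.85 for Trim30d, -1.64 for B4galnt1, -1.39 for H2-Bl, -1.38 for Phlda1 and -1.04 for Bst2. Of the 15, Snx7 and B4galnt1 kept the call whichever of 19 arrays was left out, and 14 lost it without a set term, Snx7 being the exception. Mcm4 lost it for 12 of the arrays left out and under 9 other settings, and Cyp2c55 for 10 arrays and under 6 other settings.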

How the results depend on the processing

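No paired analysis was possible because the replicates were numbered in accession order and the labels give nothing that pairs them. Agreement of sign is in large part built in, as the alternatives reuse arrays of the main fit. The largest rises and falls were also named only with the same sign in set 1, which all 284 calls had. The fit with only the compared groups repeats the estimates of set 1, as sets 2 and 3 then hold 1 group each. All 1448 values of the 63 called genes named, over 13 settings and 10 arrays left out in turn, kept their sign, and 285 were no longer past the threshold. Of these genes 14 kept their call whichever array was left out, and 8 (Ephx1, Ces2e, Gria3, Gstp1, Dcxr, Dglucy, Pclaf and Rsph4a) under every setting; 40 lost it without p53KO replicate 1 and 42 without p53KO replicate 2, the arrays that link both groups within set 1. Calls lost were 13 without a set term, 7 with the set as a random block, 9 within set 1, 19 without set 2, 34 with only the compared groups and 18 with Xist as a covariate.

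Calls in p53KO against WT (284) came to 1256 without a set term, 516 with the set as a random block, 943 within set 1, 154 with only the compared groups, 676 with array weights, 158 with Xist as a covariate, and 35 to 390 without single arrays. DKO against RbKO (164) gave 30 without a set term, 98 with the random block, 276 within set 1, 102 after another quantile normalization, 280 with array weights and 65 to 200 without single arrays. The difference between p53 effects (68) gave 1 without a set term, 210 within set 1, 5 without set 2, 11 with only the compared groups, 123 at the 40th percentile, 109 with centring, 16 with array weights and 6 to 303 without single arrays. DEN p53KO against untreated WT (1095) gave 3368 within set 1, 2299 without set 2, 2594 with only the compared groups, 3355 with array weights and 206 to 1844 without single arrays. The cause was not tested.

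Differences near 0 of genes not called in p53KO against WT changed sign. Bbc3 was 0.0759 within set 1 and with only the compared groups, 0.0396 with centring, 0.0257 after another quantile normalization, 0.0647 with array weights, 0.0265 with Xist, and -0.0846 to 0.0650 without single arrays. Pmaip1 was 0.0363 within set 1 and with only the compared groups. Rb1 was 0.0167 without a set term, 0.0084 after another quantile normalization and -0.1733 to 0.0633 without single arrays. Capsl was 0.5235 without a set term, 0.2286 with the random block, 0.0347 with centring, 0.0600 after another quantile normalization, 0.1023 with Xist and -0.1234 to 0.2706 without single arrays. Gipc2 was 0.2605 and Trim30d 0.0614 without a set term, and without single arrays Trim12a was -0.6495 to 0.0914 and Trim30d -0.5891 to 0.113, both highest without WT replicate 3.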
